A study of Mus musculus with 20 samples.

Results

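The mitochondrial ribosomal protein genes are the nuclear genes whose symbols start with Mrpl, for the large subunit, or Mrps, for the small subunit, followed by a digit. A probe set is the group of short oligonucleotides that reads out a transcript on the array, and 156 of the 45037 probe sets tested carried a single symbol of this kind. They stand for 76 of the 18193 genes measured, 47 of the large subunit (104 probe sets) and 29 of the small subunit (52 probe sets). A further 4 probe sets that carry a Mrpl or Mrps symbol beside another symbol were left out, and Mrpl30 and Mrpl53 had no probe set of their own. The rule that sets the members uses names and no signals, although earlier results of these data were known when the family was chosen.

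Mitochondria hold a small genome of their own that encodes core subunits of the respiratory chain, and a dedicated ribosome inside the organelle, the mitoribosome, translates these messages. Every protein of that ribosome is encoded in the nucleus, made in the cytosol and imported, so its proteins have to be supplied in step with ribosomal RNAs transcribed inside the organelle. The small subunit decodes the messenger RNA and the large subunit joins the amino acids. Many of the proteins have counterparts in bacterial ribosomes and others were added in the mitochondrial lineage. Mutations in several of these genes are known causes of childhood disorders of oxidative phosphorylation, which often affect the brain.

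The study compared whole brains of neonates 3 days after birth (P3), to ask how far loss of HDAC4, a class IIa histone deacetylase, changes transcription. The 10 wild type (WT) and 10 Hdac4KO neonates were untreated, 5 of each labelled sex in each genotype, with 1 array per animal. Their colony was kept by backcrosses to B6CBAF1/OlaHsd females, and homozygotes came from intercrosses. Which animals shared a litter is not given here. The knock-out is homozygous and constitutive, so every cell of the animal carries it, and the WT animals carry no engineered allele by their labels. The sources used here do not say which part of Hdac4 the allele lacks. Whole brain was used, so each signal is an average over neurons, glia, vessels, choroid plexus and meninges.

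The deposited values are log2 signals, and every signal, SD and difference given here is on that scale unless a percent is stated. Where a gene had several probe sets, the brightest over the 20 arrays stands for it. Differences are Hdac4KO minus WT, and a gene is called where the adjusted p from limma is under 0.05 after Benjamini-Hochberg adjustment over the 45037 probe sets tested. Hdac4 itself was lower in Hdac4KO arrays, by limma, at its probe set with the largest change (difference −1.39 ± 0.12 SE, adjusted p = 6.28e-07), although Hdac4KO replicate 10 (7.43) stood apart from the next highest array of its group (6.59). All 6 neuronal markers listed were measured, and their mean signal at the brightest probe sets was 12.78 in WT and 12.83 in Hdac4KO brains. Probe sets of a single marker did not always agree. Differences ran from −0.38 to 0.14 in Syt1 and from −0.15 to 0.26 in Map2, but from 0.11 to 0.14 in Rbfox3. In 3 arrays, WT replicate 5, WT replicate 9 and Hdac4KO replicate 10, the X-linked Xist and the Y-linked Kdm5d went against the sex label, and Hdac4KO replicate 10 held signal of both (12.3 and 6.88). Labels were kept as given. The subunit medians, the contrasts by sex, and the calls on members and on genes that act with the mitoribosome are also given without these arrays. Other values include all 20 arrays. Array medians lay between 6.26 and 6.32.

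Promoters are shown for the only member that was called and for 3 members of low p that differ in the motifs they hold, because the messages of this family come from many separate loci. The 76 genes lie on 17 chromosomes, 11 of them on chromosome 11 and 8 on chromosome 17. RefSeq promoter windows (GRCm38.p6, 250 bases before to 50 bases after a start site) were found for 67 of the 76 genes, 73 windows in all. Each stretch below runs from 120 bases before the start to 30 bases after it, on the strand of the gene. Capitals mark CCGGAAG, the core bound by ETS factors such as GABPA, AAGATGG, the core bound by YY1, and GCATGCG, the core bound by NRF1, each searched on both strands.
Mrps15, chr4:126046808-126046957, plus strand: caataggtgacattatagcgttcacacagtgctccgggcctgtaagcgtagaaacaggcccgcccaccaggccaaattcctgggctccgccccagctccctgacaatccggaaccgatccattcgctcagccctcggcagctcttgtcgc
Mrpl52, chr14:54426789-54426938, plus strand: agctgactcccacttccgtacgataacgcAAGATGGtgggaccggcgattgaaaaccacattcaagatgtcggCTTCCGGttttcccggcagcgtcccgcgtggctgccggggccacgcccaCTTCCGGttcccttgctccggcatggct
Mrpl9, chr3:94443216-94443365, plus strand: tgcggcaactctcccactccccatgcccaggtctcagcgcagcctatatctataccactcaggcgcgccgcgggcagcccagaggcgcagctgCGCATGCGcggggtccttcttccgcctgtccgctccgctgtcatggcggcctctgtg
Mrps22, chr9:98601650-98601799, minus strand: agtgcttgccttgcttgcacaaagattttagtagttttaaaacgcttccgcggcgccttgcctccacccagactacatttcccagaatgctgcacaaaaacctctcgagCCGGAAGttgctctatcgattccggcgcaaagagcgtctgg
The stretch of Mrpl52 holds 1 YY1 core and 2 ETS cores that read as CTTCCGG because they lie on the other strand. In Mrpl9 the capitals are a palindrome in which NRF1 cores on both strands overlap, and Mrps22 holds 1 ETS core. No core of these kinds, and no TATAAA, was found in the whole Mrps15 window.

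Over the family, the ETS core was found in 25 of 73 windows (34.2%), against 13% of the 18006 windows of measured genes and 8.86% of all 32851 windows. By subunit the ETS share was 30.4% of 46 large-subunit windows and 40.7% of 27 small-subunit windows. The YY1 core was found in 13 windows (17.8%, against 6.39% of measured genes and 6.34% of all windows). The NRF1 core was found in 8 windows (11%, against 5.10% and 3.58%), and its shares were 15.2% in the large and 3.70% in the small subunit, the latter a single window. At least 1 of the ETS, YY1 and NRF1 cores was present in 37 windows (50.7%), against 22.2% of windows of measured genes and 17.3% of all windows. TATAAA, the core of the TATA box, was found in 5 windows (6.85%), against 9.75% and 13.6%. The G and C content was 59.0% in member windows and 58.5% in those of measured genes. These are matches of letters in a window, and binding was not measured. The 25 genes with an ETS core had a median log2 fold change of −0.0047 and the 42 without it had 0.00013, so the split by this motif left both groups next to 0.

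Between genotypes the family moved little. Of the 76 genes, 1 was called lower in Hdac4KO brains (Mrps15) and none was called higher, beside 1.96% of all 18193 genes called in either direction (1.45% higher, 0.517% lower). All 76 members were, at their brightest probe set, brighter than the array median in 10 or more arrays, and of the 11579 genes of which this holds 2.78% were called. With unadjusted p under 0.05, 10 of the 76 members passed (13.2%), 9 of them lower and 1 higher, against 19.0% of all genes (12.8% higher, 6.19% lower) and 24.3% of the genes above the array median. Over all 156 member probe sets 1 was called, against 2.06% of all probe sets. With unadjusted p under 0.05, 13 of these 156 probe sets were lower and 9 higher. The split was thus more even than at the brightest probe set of each gene. In no member did the arrays of WT and Hdac4KO separate without overlap, which 0.110% of all genes did.

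Neither subunit had a median far from 0. The median log2 fold change was −0.0029 over the 47 large-subunit genes (21 above 0 and 26 below, from −0.096 to 0.11) and −0.0019 over the 29 small-subunit genes (13 above 0 and 16 below, from −0.16 to 0.12). Over all genes measured the median was 0.012, with 57.2% above 0, and 44.7% of the members were above 0. None of 47 large-subunit genes and 1 of 29 small-subunit genes was called. At unadjusted p under 0.05 there were 1 higher and 6 lower in the large subunit, and 3 lower in the small subunit. Without the 3 arrays that go against their sex label the medians were −0.0057 and −0.0018.

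**Figure D1:**
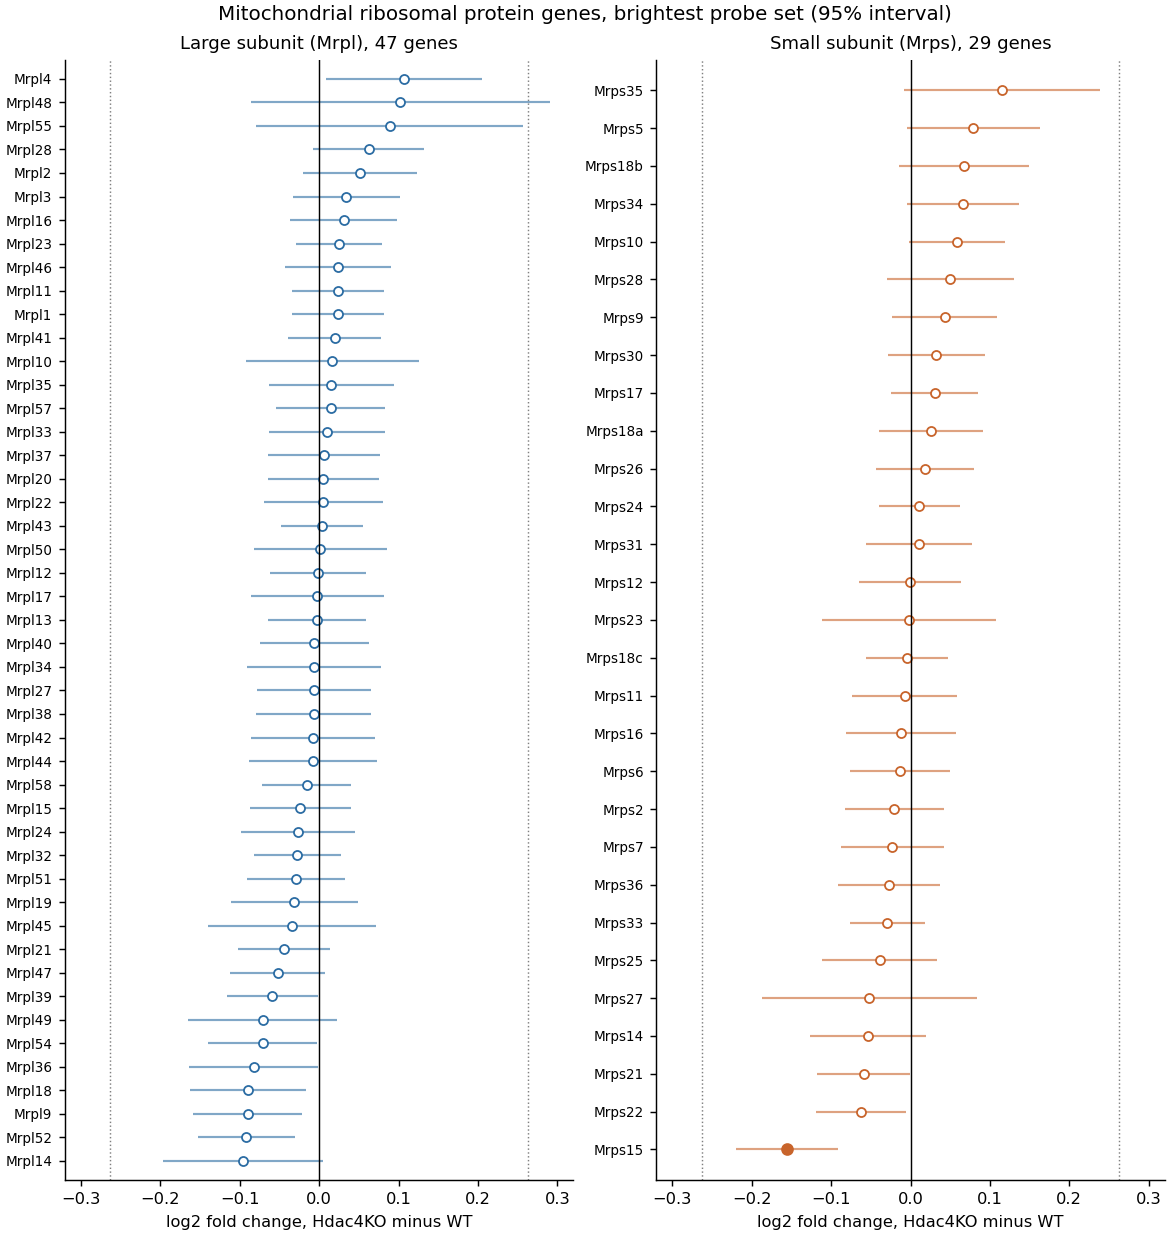
Log2 fold change, Hdac4KO minus WT, of each mitochondrial ribosomal protein gene at its brightest probe set (points, 10 arrays per genotype) with its 95% interval from limma (lines); left, the 47 large-subunit genes, right, the 29 small-subunit genes. The filled point is Mrps15, the only gene called, and dotted lines mark a change of 20% (0.263 on the log2 scale, with its mirror below 0), which only the interval of Mrpl48 crosses.

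At the brightest probe set of each gene, the intervals set limits on what could have been missed. For 75 of 76 members the 95% interval of the log2 fold change lay within a change of 20% either way, 46 of 47 in the large and 29 of 29 in the small subunit. The exception was Mrpl48 (0.10, 95% interval −0.086 to 0.29), a large-subunit protein with no bacterial counterpart, whose replicates were more spread than those of other members (SD 0.20 in WT and 0.24 in Hdac4KO brains). For 60 of 76 members, 36 large and 24 small, the interval lay within 10%. These counts do not cover other probe sets of the same genes, some of which had intervals beyond 20%. Examples are a dim probe set of Mrpl21 (0.21, 95% interval 0.093 to 0.33) and the dimmest of Mrps15 (−0.16, −0.36 to 0.042). The median SD of a member over 10 arrays was 0.057 in WT and 0.070 in Hdac4KO brains, against 0.096 and 0.11 over all genes, and the median width of an interval to either side was 0.069 for members and 0.098 for all genes. For all genes above the array median the median SDs were 0.078 and 0.090.

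**Figure D2:**
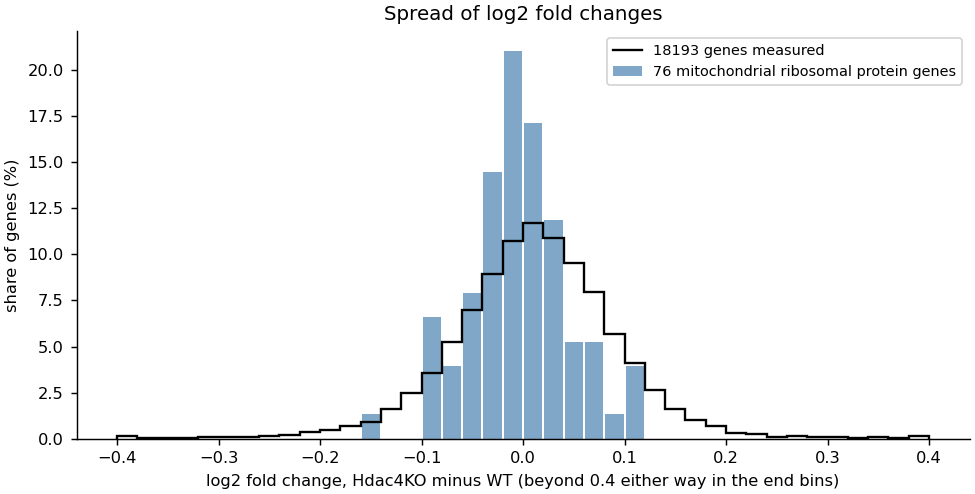
Share of genes (%) by log2 fold change, Hdac4KO minus WT, in bins, for the 76 mitochondrial ribosomal protein genes (bars) and all 18193 genes measured (line). The members lie between −0.16 and 0.12 with a median of −0.0026, and the line for all genes has longer tails on both sides and a median of 0.012.

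Splitting the subunits by ancestry did not bring out a group that stood apart. Median log2 fold changes were −0.0011 for 29 large-subunit proteins with bacterial counterparts, −0.0074 for 18 found in mitochondria only, −0.0047 for 17 small-subunit proteins with bacterial counterparts and −0.0019 for 9 found in mitochondria only. Some symbols do not match where the protein sits. Mrps30 (0.033, adjusted p = 0.606 from limma) and Mrps18a (0.026, adjusted p = 0.732) encode proteins that sit in the large subunit. The paralogs of Mrps18a that encode small-subunit proteins, Mrps18b (0.067, adjusted p = 0.389) and Mrps18c (−0.0047, adjusted p = 0.952), were not called either. Mrps36 (−0.027, adjusted p = 0.713) encodes a protein now placed in the oxoglutarate dehydrogenase complex rather than in the mammalian mitoribosome. With genes assigned by the place of the protein, the medians were −0.0023 for 49 large-subunit and −0.0033 for 26 small-subunit genes.

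Mrps15, which encodes a small-subunit protein with a bacterial counterpart, was the member that fell. Its brightest probe set ranged in WT arrays from 10.05 to 10.24 with a median of 10.15, and in Hdac4KO arrays from 9.91 to 10.10 with a median of 9.98. All 10 Hdac4KO arrays lay below the WT mean and 7 lay below the lowest WT array, with Hdac4KO replicates 6, 7 and 9 (10.10, 10.07 and 10.06) inside the WT range. The mean was 10.15 ± 0.05 for WT and 9.996 ± 0.065 for Hdac4KO brains (SD, n = 10 each), and the difference of −0.16 ± 0.031 (SE, 95% interval −0.22 to −0.092) had an adjusted p of 0.0181 from limma. On the linear scale the signal fell by 10.2% (95% interval −14.2% to −6.15%). In whole-brain RNA, fewer cells that express a gene and less of its RNA per cell cannot be told apart.

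The other probe sets of Mrps15 differed in the same direction and were not called. The second, at almost the same signal, was 10.06 ± 0.08 in WT and 9.97 ± 0.06 in Hdac4KO brains (SD, n = 10 each), which differ by −0.091 (adjusted p = 0.144 from limma). Its groups overlapped more, since WT replicates 7, 8 and 10 (9.97, 9.95 and 9.95) lay among the Hdac4KO arrays. The last was dim and more spread, at 6.77 ± 0.15 and 6.61 ± 0.29 (SD, n = 10 each), with a log2 fold change of −0.16 (adjusted p = 0.409 from limma).

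**Figure D3:**
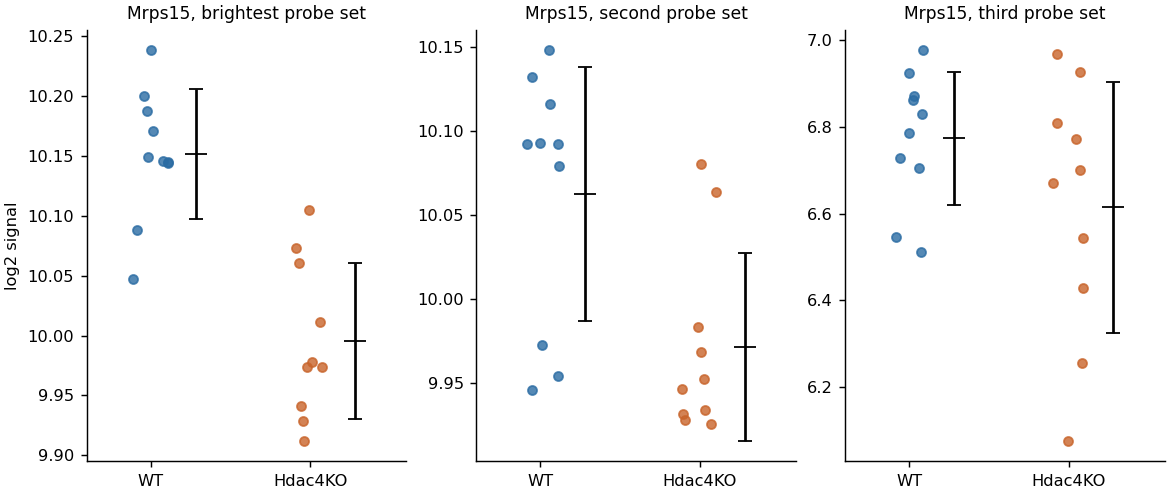
Log2 signal of the 3 Mrps15 probe sets in each WT and each Hdac4KO array (points), with the mean and SD of each genotype (bars, n = 10); the vertical axes differ and do not start at 0. At the brightest probe set 7 of 10 Hdac4KO arrays lie below every WT array, and at the other probe sets the genotypes overlap more.

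The call on Mrps15 was close to the threshold. It held without each of the 20 arrays in turn (adjusted p from 0.0119 to 0.0391 from limma). It was lost when the 3 arrays that go against their sex label were left out (−0.14, adjusted p = 0.0578), when a covariate for RNA integrity was added, the signal at the 3′ end minus that at the 5′ end of the Actb and Gapdh controls (−0.14, adjusted p = 0.0883), and when the mean (−0.14, adjusted p = 0.0737) or the most variable (−0.16, adjusted p = 0.409) of its probe sets stood for the gene. This difference of ends was 0.19 ± 0.03 in WT and 0.22 ± 0.03 in Hdac4KO arrays (SD, n = 10 each). The part of RNA integrity in the Mrps15 difference was not tested further. By labelled sex the difference was −0.23 in males (adjusted p = 0.0410 from limma, 5 arrays a genotype) and −0.084 in females (adjusted p = 0.443). The difference between the sexes was 0.14 with an unadjusted p of 0.0182 and an adjusted p of 0.917 from limma, so it did not pass. No other member was called by limma in either sex, beside 0.0330% of all genes in males and 0.0385% in females. At an unadjusted p under 0.05 there were 7 of 76 members in males, against 12.5% of all genes, and 2 in females, against 11.4%.

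These values by sex include the arrays that go against their label, WT replicate 5 and Hdac4KO replicate 10 among males and WT replicate 9 among females. Without them, Mrps15 differed by −0.22 in males (adjusted p = 0.164 from limma, 4 arrays a genotype), so the call in males was lost, and by −0.071 in females (adjusted p = 0.515, 4 WT and 5 Hdac4KO arrays). The difference between the sexes was then 0.15 (adjusted p = 0.574). No member was called by limma in either sex, and at an unadjusted p under 0.05 there were 6 members in males, against 10.9% of all genes, and 1 in females, against 13% of all genes. For the difference between the sexes, 2 of 76 members had an unadjusted p under 0.05, against 7.32% of all genes.

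Among the large-subunit genes, Mrpl52, which encodes a protein found in mitochondrial ribosomes only, had the smallest p. WT arrays ranged from 10.95 to 11.07 with a median of 11.02, and Hdac4KO arrays from 10.84 to 11.04 with a median of 10.90. In Hdac4KO brains 9 arrays lay below the WT mean and 7 below the lowest WT array, and Hdac4KO replicate 2 (11.04) was above most of the WT arrays. The difference of −0.092 ± 0.030 (SE, 95% interval −0.15 to −0.030) had an adjusted p of 0.101 from limma. It passed with Hdac4KO replicate 2 left out (−0.11, adjusted p = 0.0388), and with dim probe sets left out of the test (adjusted p = 0.0435). Its 4 probe sets ran from −0.092 to 0.058.

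The next large-subunit genes by p are all counterparts of bacterial ribosomal proteins. Mrpl9 was at 9.44 ± 0.06 in WT and 9.35 ± 0.08 in Hdac4KO brains (SD, n = 10 each), with a log2 fold change of −0.090 (adjusted p = 0.147 from limma). Mrpl18 ranged from 10.09 to 10.26 in WT and from 9.88 to 10.17 in Hdac4KO arrays, with a log2 fold change of −0.090 (adjusted p = 0.172). In both genes 5 Hdac4KO arrays lay below the lowest WT array and the other 5 overlapped with WT. Mrpl4 lay in the opposite direction, at 9.32 ± 0.10 in WT and 9.43 ± 0.11 in Hdac4KO brains (0.11, adjusted p = 0.232), and its arrays overlapped over most of their range. At the brightest probe sets, Mrpl4 was the only member with an unadjusted p under 0.05 and a higher signal in Hdac4KO brains. Over all member probe sets, 9 were higher at that threshold, among them 1 of Mrps9 (0.13).

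Of the small-subunit genes after Mrps15, Mrps22, which encodes a mitochondria-specific protein, was at 9.79 ± 0.04 in WT and 9.73 ± 0.06 in Hdac4KO brains (SD, n = 10 each), with a log2 fold change of −0.063 (adjusted p = 0.227 from limma). Mrps21 (−0.059, adjusted p = 0.277) was also on the lower side. Mrps10 (0.059, adjusted p = 0.293) and Mrps5 (0.079, adjusted p = 0.307) were on the higher side. The 5 probe sets of Mrps5 ran from −0.032 to 0.13. Each of these 4 genes overlapped between genotypes.

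Hdac4 lies on chromosome 1, where 3.31% of the 1057 genes placed there were called, and 4 members lie on the same chromosome. None of them was called by limma or had an unadjusted p under 0.05 at its brightest probe set. Mrpl44, with 110 protein-coding genes between it and Hdac4, differed by −0.0078 between genotypes (adjusted p = 0.948 from limma). Its 4 probe sets ran from −0.046 to 0.13. Mrps9 (0.043, adjusted p = 0.516), with 342 genes between, was above 0 at each of its 4 probe sets, from 0.043 to 0.13, and none was called. Mrpl15 (−0.024, adjusted p = 0.747) lies 511 genes before Hdac4 and its 8 probe sets ran from −0.070 to 0.15. Mrps14 (−0.053, adjusted p = 0.455) lies 332 genes after it and its 3 probe sets ran from −0.16 to −0.019.

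Probe sets of a single gene did not always run together. Of the 42 members with more than 1 probe set, 23 had log2 fold changes of both signs, and in 3 (Mrpl21, Mrpl13 and Mrpl15) they differed by over 0.2. The widest of these, chosen after its values were seen, was Mrpl21. At its brightest probe set it was 9.38 ± 0.06 in WT and 9.34 ± 0.04 in Hdac4KO brains (SD, n = 10 each), a difference of −0.044 (adjusted p = 0.432 from limma). At a dim probe set, below the array median, it was 6.07 ± 0.13 and 6.28 ± 0.14, a log2 fold change of 0.21 (adjusted p = 0.0548). A further dim probe set gave 0.12 (adjusted p = 0.265). Of the 156 probe sets, 124 were brighter than the array median in 10 or more arrays.

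The members moved together from array to array, more than they differed between genotypes. For each array, the deviation of each gene from its own mean over the 20 arrays was averaged over a subunit. The large-subunit average ranged from −0.049 to 0.059 in WT (SD 0.033) and from −0.084 to 0.061 in Hdac4KO arrays (SD 0.051), and the small-subunit average from −0.054 to 0.040 (SD 0.028) and from −0.090 to 0.071 (SD 0.054). Both averages had the same sign in 18 of 20 arrays. The large minus the small average was 0.0041 ± 0.013 in WT and −0.0041 ± 0.012 in Hdac4KO arrays (SD, n = 10 each), so the balance of the subunits differed between genotypes by less than its spread between arrays.

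The low and the high arrays were broad over the family. In Hdac4KO replicate 2, 68 of 76 members were below their own mean, and in replicate 3, 69 were. In Hdac4KO replicate 10, 67 members were above their mean, and in WT replicate 9, 61 were. Both of these high arrays go against their sex label, and they have the lowest array medians of all (6.259 and 6.264). Hdac4KO replicates 6, 7 and 9 were nearly as high as WT replicate 9, with 59, 56 and 58 members above their mean. They do not go against their sex label, and their array medians were 6.292, 6.292 and 6.296. WT replicate 7 had 61 members below. The 28 genes of cytosolic ribosomal proteins, which build the ribosomes outside mitochondria, had averages of 0.0053, 0.0097 and −0.0079 in Hdac4KO replicates 2, 3 and 10 and 0.0018 in WT replicate 9, all next to 0. In WT replicate 7 their average was −0.030, on the same side as the members and the lowest of the 20 arrays. These 28 are the genes that a symbol pattern found. Their median signal was 13.39, against 9.77 for the members and a highest signal of 14.69 over all genes. Their median SD in WT arrays was 0.034, against 0.057 for the members. Whether such bright probe sets could shift as far as the members was not tested. For the 77 genes of the respiratory chain and ATP synthase, the averages in Hdac4KO replicates 2, 3 and 10 were −0.033, −0.034 and 0.055, and for all genes −0.016, −0.019 and 0.042. In WT replicates 7 and 9 they were −0.039 and 0.060, and for all genes −0.016 and 0.027. In each of these arrays both averages lay on the same side of 0 as the members. The difference of ends in the controls was 0.181 in Hdac4KO replicate 2 and 0.262 in replicate 10, the lowest and highest of that group. In Hdac4KO replicate 3 it was 0.254. The part of array quality in this spread was not tested.

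**Figure D4:**
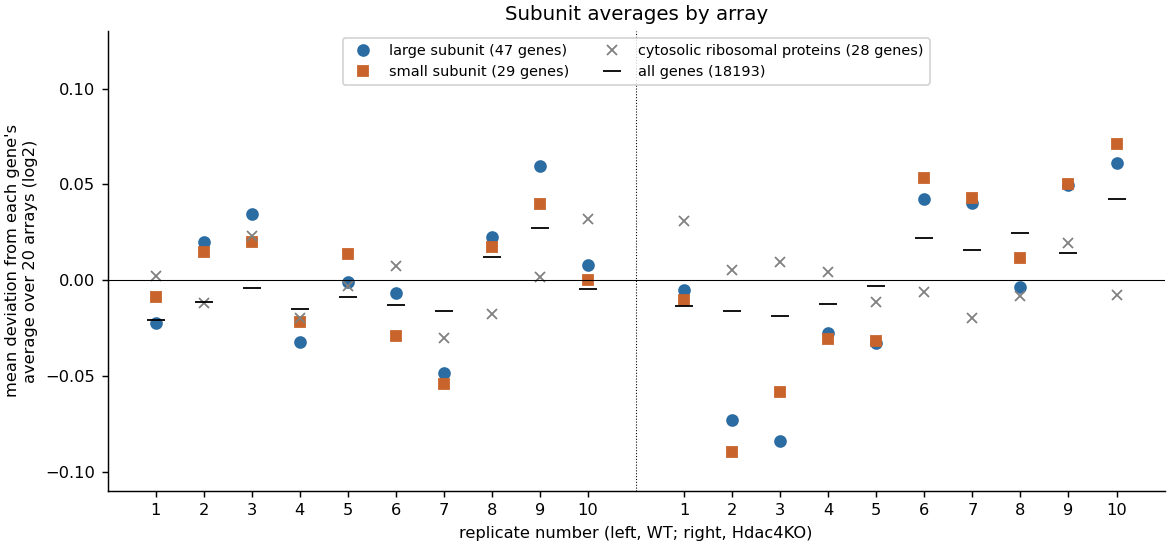
Mean deviation of the genes of each list from their own average over the 20 arrays (log2), by array (horizontal axis, replicate number; WT left, Hdac4KO right), for the large subunit, the small subunit, cytosolic ribosomal proteins and all genes. The large and small subunit lie close together in each array, lowest in Hdac4KO replicates 2 and 3 and highest in Hdac4KO replicate 10, while the cytosolic ribosomal proteins stay within 0.032 of 0.

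Beside the members, the cytosolic ribosomal protein genes had a median log2 fold change of 0.0025 with 0 of 28 called by limma and 1 with an unadjusted p under 0.05. The respiratory chain and ATP synthase genes had a median of 0.014, 54 above 0 and 23 below, with 0 of 77 called and 8 with an unadjusted p under 0.05 (10.4%). These lists were set by symbol pattern.

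Genes that act with the mitoribosome were counted in the same way, to be read against the shares over all genes, of which 1.45% were called higher and 0.517% lower, 12.8% were higher and 6.19% lower at an unadjusted p under 0.05, and 57.2% were above 0. Of the mitoribosomal proteins with other kinds of names, 4 were measured (Dap3, Ptcd3, Chchd1 and Gadd45gip1), with a median log2 fold change of 0.0092, none called and none with an unadjusted p under 0.05. Among 11 translation factors 1 was called higher and none lower, with a median of −0.0045. This was Oxa1l, which inserts newly made proteins into the inner membrane beside the ribosome. Its signal ranged from 8.001 to 8.27 in WT and from 8.15 to 8.41 in Hdac4KO arrays, and the difference of 0.17 ± 0.044 (SE) had an adjusted p of 0.0472 from limma, and its 3 probe sets ran from −0.14 to 0.17. The call was lost with any 1 of 15 arrays left out, and held only without WT replicates 9 or 10 or Hdac4KO replicates 2, 3 or 4. Guf1 (0.079, adjusted p = 0.289), an elongation factor, and Mtrf1l (−0.098, adjusted p = 0.410), a release factor, were not called.

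Of 23 genes of mitoribosome assembly and modification of its RNA, 2 were called higher and none lower, with a median log2 fold change of 0.048, 16 above 0, and 8 higher against 1 lower at an unadjusted p under 0.05. Nothing particular to this list was tested. Mtg1, a GTPase of large-subunit assembly, was at 8.41 ± 0.08 in WT and 8.57 ± 0.10 in Hdac4KO brains (SD, n = 10 each), a difference of 0.16 (adjusted p = 0.0420 from limma). Spg7, a subunit of the inner-membrane protease that matures the large-subunit protein MRPL32, was at 8.54 ± 0.07 and 8.66 ± 0.05, a log2 fold change of 0.12 (adjusted p = 0.0465), with −0.017 at its other probe set. Mrpl32 itself was not called (−0.028). Dhx30, an RNA helicase, missed the threshold (0.087, adjusted p = 0.0830). With the 3 arrays against their sex label left out, Oxa1l, Mtg1 and Spg7 were no longer called. Of single arrays, the count of 2 held without WT replicates 3 or 9 or Hdac4KO replicates 2 or 3, was 1 without WT replicate 10 or Hdac4KO replicates 1 or 4, and was 0 without any 1 of the other 13 arrays.

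None of 18 mitochondrial aminoacyl-tRNA synthetases was called by limma (median log2 fold change 0.015), and 3, Nars2 (0.11, adjusted p = 0.180), Cars2 (0.099, adjusted p = 0.231) and Tars2 (0.060, adjusted p = 0.264), were higher at an unadjusted p under 0.05. None of 16 genes of mitochondrial transcription and RNA turnover was called (median 0.029), and the smallest p values were those of Rexo2 (−0.12, adjusted p = 0.0784), a nuclease of short RNAs, and Ssbp1 (−0.095, adjusted p = 0.268), which binds single-stranded mitochondrial DNA. At an unadjusted p under 0.05 these 2 were lower and none was higher. Twnk, the helicase of the mitochondrial genome, was at 0.063 (adjusted p = 0.303). Tfam, the factor that packs and transcribes the mitochondrial genome, was at 0.027 (adjusted p = 0.633).

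Of 9 nuclear regulators of mitochondrial genes none was called by limma, and 1 was higher at an unadjusted p under 0.05 (median log2 fold change 0.036). That gene was Ppargc1b, a coactivator, at 0.16 (adjusted p = 0.0511), and Pprc1 of the same family was at 0.065 (adjusted p = 0.407). Ppargc1a was at −0.11 (adjusted p = 0.425), with more spread in Hdac4KO (SD 0.22) than in WT brains (SD 0.067). Nrf1 (0.036, adjusted p = 0.741) and Gabpa (−0.017, adjusted p = 0.868), whose products bind the NRF1 and ETS cores counted above, were not called.

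**Figure D5:**
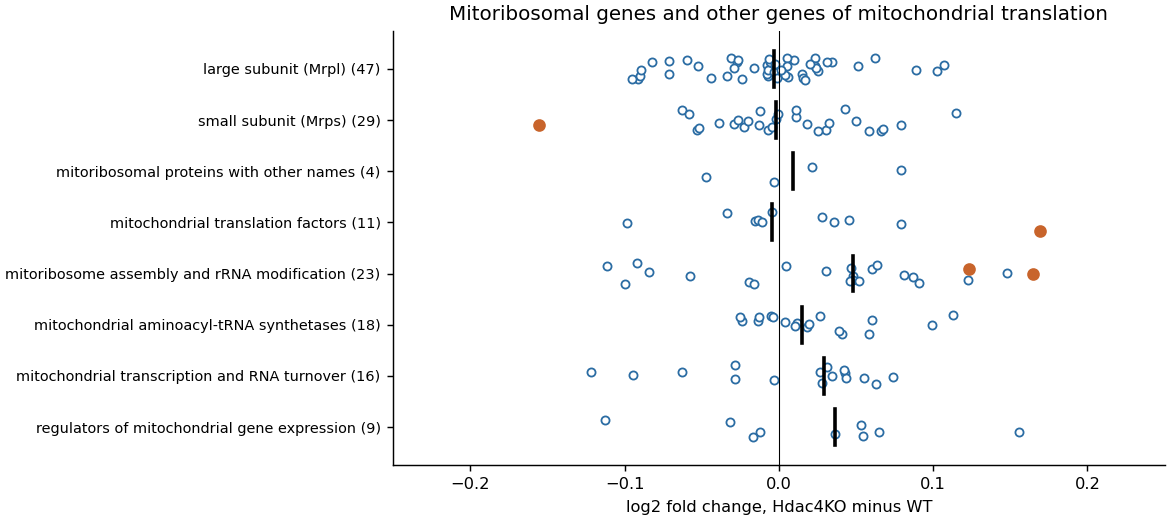
Log2 fold change, Hdac4KO minus WT, of each gene of the large and small mitoribosomal subunit and of the lists of genes that act with them (points; the number of genes measured is beside each list), with the median of each list (vertical bars). Filled points are the genes called by limma: Mrps15 in the small subunit, Oxa1l among translation factors, and Mtg1 and Spg7 among assembly genes.

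Other cell types were read from marker lists, given here because whole brain mixes them. Over all genes, 1.45% were called higher and 0.517% lower, and at an unadjusted p under 0.05 from limma 12.8% were higher and 6.19% lower. All 5 markers of the choroid plexus had negative log2 fold changes (median −0.14), 1 was called (Ttr, −0.14, adjusted p = 0.0420 from limma) and 2 had an unadjusted p under 0.05 (Ttr, and Folr1 at −0.30, adjusted p = 0.0868), with list means from 8.74 to 9.19 in WT and from 8.58 to 8.93 in Hdac4KO arrays. The 5 markers of dividing progenitors that were measured were also below 0 (median −0.14, none called by limma and 3 with an unadjusted p under 0.05), with list means from 8.16 to 8.57 in WT and from 7.93 to 8.54 in Hdac4KO arrays. Of 6 microglial markers 5 were above 0, 1 was called higher (Tmem119, 0.26, adjusted p = 0.0179 from limma) and 3 had an unadjusted p under 0.05 (with C1qa at 0.21, adjusted p = 0.0704, and Csf1r at 0.17, adjusted p = 0.159), with list means from 7.14 to 7.44 in WT and from 7.29 to 7.58 in Hdac4KO arrays. No marker of neurons, astrocytes and radial glia, the oligodendrocyte lineage, endothelial and mural cells, erythroid cells or meningeal fibroblasts was called by limma. At an unadjusted p under 0.05 there were 2 neuronal markers and 1 erythroid marker above 0, 2 astrocyte and 2 meningeal markers below 0, and none of the other 2 lists. The log2 scale has no true zero, so no marker can be read as absent, and the part of these cell types in the Mrps15 difference was not tested.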

How the data were processed

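Total RNA of 20 whole brains was labelled by the authors with a 3′ IVT Express kit and hybridized to Affymetrix mouse genome arrays, and chips above a threshold of the median normalized unscaled standard error were excluded. The values the authors deposited are on the log2 scale, all positive, with medians alike between arrays. The sources used here do not name the method of summary and normalization. The platform annotation used for symbols can be old, and the promoter windows are from RefSeq.

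After 64 control probe sets were left out, a linear model with genotype alone was fitted by limma (version 3.58.1, lmFit then eBayes, under R 4.3.3), with Benjamini-Hochberg adjustment over 45037 probe sets. The methods' t-test was an alternative. For each labelled sex, the contrast was taken from 1 model of the 4 combinations of sex and genotype. The fit was tested on simulated data. Tables were made with Python 3.11.15, pandas 2.3.3 and numpy 2.4.6. The number of arrays limits the precision. The p-values set the difference between genotypes against the spread between these animals, which eBayes moderates over all probe sets. The model had no term for litter.

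Named members are those called, the 4 of each subunit with the smallest p that were not called, those on the chromosome of Hdac4, and Mrps18a, Mrps18b, Mrps18c, Mrps30 and Mrps36. Up to 3 genes of each pathway list by p are named, with Tfam, Nrf1, Gabpa and Ppargc1a. Mrpl48, Mrpl21, Mrpl13, Mrpl32 and the marker genes were named after their values were seen. The members and lists were chosen with earlier results of these data known, and the lists of cytosolic ribosomal proteins and respiratory chain genes were added later by symbol pattern. The lists cover mitoribosomal proteins with other names, translation factors, assembly and RNA modification, aminoacyl-tRNA synthetases, transcription and RNA turnover, regulators, and markers of 9 cell types. Replicate numbers are shared by the genotypes, but for 1 of 10 numbers only did the paired arrays correlate above 0.1, so they were not used as pairs.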

Additional observations from a re-analysis of the deposited data

Results flagged for a closer look

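Single arrays that lay far from the other 9 of their genotype were looked for in 38 groups of 10 arrays, of which chance would mark about 1 in 20. Of the members named in the report, Mrpl18 stood out in Hdac4KO replicate 8, at a log2 signal of 9.88 when the nearest other array was at 10.03 (gap over the whole range 0.521). Mrps18c stood out in Hdac4KO replicate 1, at 10.45 with the nearest array at 10.53 (0.557). Hdac4 itself stood out in Hdac4KO replicate 10, at 7.43 with the nearest array at 6.59 (0.594), the array that also went against its sex label.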

How the results depend on the processing

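The large-subunit median log2 fold change lay between −0.0096 and 0.0079 with each array left out in turn and between −0.011 and 0.0051 under 15 other settings, and the small-subunit median between −0.010 and 0.011 in both cases, all shifts smaller than the SD between WT arrays. The count of members called, 1 in the report, was 0 with the 3′ minus 5′ covariate, with the mean or the most variable probe set per gene, with the 3 arrays against their sex label left out (chosen after seeing the data) and at an adjusted p under 0.01, and the small-subunit count was 0 in the same settings. With dim probe sets left out, 2 members were called, 1 of them in the large subunit. With each array left out in turn the members called were from 1 to 2, the large-subunit count from 0 to 1 and the small-subunit count 1. The 3′ minus 5′ covariate left 43 of all probe sets called, in place of 927. Leaving out WT replicate 8 and Hdac4KO replicate 10 (chosen after seeing the data) kept the call on Mrps15 (adjusted p = 0.0482 from limma).

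Translation factors called, 1 in the report, were 0 with the 3′ minus 5′ covariate, the replicate block, median centring, both sets of arrays left out after seeing the data, the mean or most variable probe set and an adjusted p under 0.01, and from 0 to 1 with each array left out. Assembly genes called, 2 in the report, were 1 with labelled sex as a covariate, the replicate block, and the mean or most variable probe set, and 0 with the 3′ minus 5′ covariate, quantile normalization, median centring, both sets of arrays left out and an adjusted p under 0.01, and from 0 to 2 with each array left out. They were 3 with the methods' t-test, with dim probe sets left out, with trend and robust moderation and at an adjusted p under 0.1. Genes of transcription and RNA turnover called, 0 in the report, were 1 with dim probe sets left out, with trend and robust moderation and at an adjusted p under 0.1. Regulators called, 0 in the report, were 1 in those 3 settings and with the replicate block, array weights, and the mean or most variable probe set, and from 0 to 1 with each array left out. The causes were not tested.

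Direction turned in members that were not called: Mrpl52 with its most variable probe set (0.058), Mrpl15 with the mean (0.0082) or most variable probe set (0.061), and Mrpl44 with the mean (0.030) or most variable probe set (0.13). With single arrays left out, Mrpl44 ranged from −0.030 to 0.0094 and turned in 4 cases, and Mrps18c ranged from −0.013 to 0.0061 and turned in 3.

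With the replicate number as a block, the count of members called was again 1, Mrps15 (adjusted p = 0.0263 from limma), although the numbers did not pair the arrays (correlation of deviations from −0.149 to 0.162 over 10 numbers, with 1 WT array closest to its own number). The block called 948 probe sets in place of 927. Signals near background limit the dim probe sets most.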
